A study of Homo sapiens with 8 samples.

Results

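The high mobility group (HMG) genes HMGB1, HMGB2, HMGB3, HMGA1 and HMGA2 were followed through 8 expression arrays of human cancer cell lines. They were 5 of the 42072 genes named on the array, taken by their names in the array files, and 8 of the 58201 probes measured them. The set was assembled because HMGB1 had the lowest log2 ratio after miR-490-3p transfection among 38 candidate targets that the study had selected on that same array. Besides that array, the study used predicted miR-490-3p sites and higher expression in colon cancer tissues to select them. The rank of HMGB1 holds for background-corrected and loess-normalized ratios, and with the scanner's own ratio HMGB1 (-1.84) was 9th of the 38. Values of the miR-490-3p array are therefore given as a description, and nothing is supported with them.

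Every array compared a transfected culture, labelled with Cy5, with mock cells of the same line, labelled with Cy3 and described as not transfected. A498 and 786-O, both renal cancer lines, each received miR-139-5p on 1 array and miR-139-3p on another. MDA-MB-231, a breast cancer line, received 1 of 2 siRNAs against GINS1 (si-GINS1_1 or si-GINS1_2), and HCT116, a colorectal cancer (CRC) line, received miR-490-5p or miR-490-3p on 1 array each. The cultures were kept in RPMI 1640 or DMEM and transfected with Lipofectamine RNAiMAX. Each replicate of a miR-139 strand is another cell line, each replicate of si-GINS1 is another siRNA, and the miR-490 strands have none. No array carried cells given a control small RNA, so the action of a small RNA's sequence and that of transfection itself cannot be told apart here. Dyes were never swapped, so a probe that takes up the dyes unequally is displaced the same way on every array.

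HMGB proteins are abundant nuclear proteins that bend DNA through a pair of HMG-box domains and end in an acidic tail. HMGB1 also leaves stressed or dying cells and acts outside them as a danger signal through the receptor AGER (RAGE) and Toll-like receptors. HMGB2 is a close relative found mainly in dividing cells, where it also belongs to the SET complex, and HMGB3 is best known from blood precursor cells. HMGA proteins are small architectural factors that grip the minor groove of AT-rich DNA with AT-hooks. HMGA2 is an embryonic gene that returns in many tumors, and its 3′ untranslated region is a textbook target of let-7 miRNAs. A miRNA recognises a target mainly through its seed, bases 2 to 8 counted from the 5′ end.

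The 4 transfected miRNAs are shown because every comparison of miRNAs below turns on which strand was given. Mature sequences are from RefSeq, with positions on GRCh38.p14, and capitals mark the seed. miR-490-3p lies at chr7:136903242-136903263 and miR-490-5p at chr7:136903205-136903224 on the plus strand. miR-139-5p lies at chr11:72615102-72615124 and miR-139-3p at chr11:72615066-72615088 on the minus strand. No seed was shared among them.
hsa-miR-490-3p: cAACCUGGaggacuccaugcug
hsa-miR-490-5p: cCAUGGAUcuccaggugggu
hsa-miR-139-5p: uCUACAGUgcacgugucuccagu
hsa-miR-139-3p: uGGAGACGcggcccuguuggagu

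The probes are 60 bases long and are placed on hg19 as the array's own annotation has them. HMGB1 had 1 probe (NM_002128) on the minus strand of chromosome 13. It matched within chr13:31037459-31037696, which spans 238 positions for 60 bases, so the annotation places its letters in separate blocks. HMGB2 had 1 probe (NM_002129) at chr4:174253013-174253072 on the minus strand, and HMGA1 had 1 (NM_145901) at chr6:34213595-34213654 on the plus strand. HMGB3 had 2 probes, both annotated to NM_001301228 on the plus strand. They are called upstream (chrX:150156573-150156632) and downstream (chrX:150159180-150159239) here. HMGA2 had 3 probes on the plus strand, called proximal (NM_001300918, chr12:66219101-66219160), middle (NM_001300919, chr12:66309240-66309299) and distal (NM_003483, chr12:66359789-66359848). Exon and untranslated region boundaries of this build were not used here. Where a gene had several probes the brightest stood for it, which was the downstream probe of HMGB3 and the distal probe of HMGA2. Each probe was printed once per array and none of its spots was flagged. In at least 1 channel all 8 probes were well above background, by the scanner's flag, on 8 of 8 arrays.

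Stretches of 3 probes are given to show what the array read. The HMGB1 stretch opens the probe on which the choice of these genes rests. In the HMGA1 stretch capitals mark a word complementary to the seed of let-7a-5p. In the HMGA2 proximal stretch capitals mark the codons of arginine, glycine, arginine and proline, the core of an AT-hook, so this probe lies in coding sequence of the DNA-binding part.
HMGB1: tttctaacaagtgctcagagaggtggaaga
HMGA1: ctgttcacaaaCTACCTCtggacagttgtg
HMGA2 proximal: aagagaggaCGCGGCCGCCCCaggaagcag

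The 7-base words complementary to the seeds were looked for in the probes' own strand only. The word for miR-490-3p (CCAGGTT) was in 0 of the 8 probes and in 0.39% of all probes on the array. The words for miR-490-5p (ATCCATG), miR-139-5p (ACTGTAG) and miR-139-3p (CGTCTCC) were in 0 of the 8 as well, against 0.448%, 0.32% and 0.168% of all probes. The let-7 word CTACCTC was in 1 of the 8, that of HMGA1, and in 0.314% of all. Probes cover a small part of a transcript, so these counts describe the probe windows only.

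The arrays had a median spot brightness of 19.81 to 25.02 in either channel over a local background of 14 to 17, and 0 spots were saturated. Between 19037 and 22216 genes per array were well above background. The pair of Cy3 channels of a line differed with an SD of 0.07 to 0.10 log2 units over genes, and those of the 8 HMG probes by at most 0.20. GINS1, the siRNA target, had log2 ratios of -1.31 with si-GINS1_1 and -1.92 with si-GINS1_2. In the mock channels HCT116 had the highest EPCAM, CDH1 and CDX2 of the 4 lines, and both renal lines had the highest PAX8 and PAX2. Other markers went against the labels. CDX1, a colorectal marker, was highest in A498 (7.11, and 6.80 in HCT116), and CA12, a renal marker, was higher in MDA-MB-231 (8.34) than in 786-O (7.97). LGALS4, a colorectal marker, was not well above background in HCT116, and SPARC, chosen as a marker of MDA-MB-231, was so on only 1 of its 2 arrays. VIM was high in MDA-MB-231 and in both renal lines. Of 6 markers of cells that no line should hold, HBB was not well above background in Cy3 on any array, while CD79A and PTPRC were so on all, and CD14 had its highest level in MDA-MB-231.

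With miR-490-3p in HCT116, HMGB1 was the lowest and HMGA2 the highest of the HMG genes. The HMGB1 probe had a brightness of 4316 in mock cells and 1661 in transfected cells, against 4306 and 4453 on the miR-490-5p array. Its log2 ratio was -1.73, a 3.33-fold lower level, and only 9 of 21361 genes measured on that array lay lower. HNRNPA1, the next of the 38 candidates by these ratios, had -1.67. On the remaining 7 arrays the HMGB1 ratio lay between -0.63 and 0.31. A lower level in every cell and a share of cells with none cannot be told apart in RNA of whole cultures.

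The distal HMGA2 probe moved the other way. Its brightness was 1094 in mock and 4603 in transfected cells, a log2 ratio of 1.67 or 3.18-fold, and 13 of the 21361 genes lay higher. With miR-490-5p the same probe had 1168 in mock and 1076 in transfected cells. The other HMGA2 probes did not follow it. The proximal probe, in the AT-hook coding sequence printed above, had 260 and 311 and a log2 ratio of 0.00, and the middle probe had 172 and 148 and a ratio of -0.35. The proximal probe stayed between -0.06 and 0.13 on all 8 arrays, the narrowest span of the 8 probes at 0.20, and it was the richest in G and C at 70.0%. NM_003483, NM_001300918 and NM_001300919 are different transcript variants of HMGA2, and which of them each probe reads was not tested.

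The remaining HMG genes lay between these extremes. HMGB2 stood at -0.65 on the miR-490-3p array and at -0.08 on the miR-490-5p array. HMGB3 had -0.26 at the downstream and 0.01 at the upstream probe with miR-490-3p. HMGA1 had -0.29. Median centring gave HMGB2 -0.30 (miR-490-3p) and 0.11 (miR-490-5p), and on the miR-490-3p array it gave HMGB3 downstream 0.02 and HMGA1 0.14. By a rule of size, which takes a ratio of -1 or lower as low and of 1 or higher as high, 1 of the 5 genes was low (HMGB1) where 0.665% of all measured genes were, and 1 was high (HMGA2) where 0.412% were. The counts of low and high genes were 142 and 88, and 70 and 253 with median centring. HMGB1 was chosen on this array, so nothing is read from these counts. These arrays have no replicate, and no test was made.

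**Figure D1:**
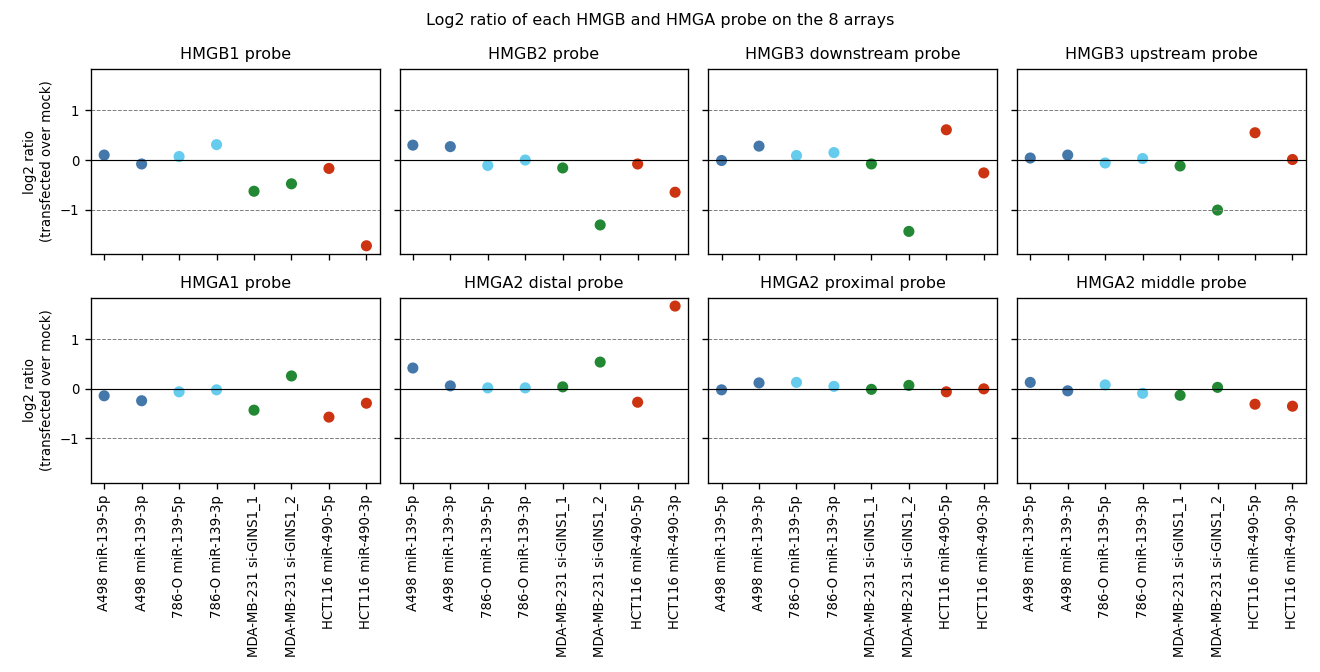
Log2 ratio of Cy5 (transfected) over Cy3 (mock) for each of the 8 probes, 1 point per array, coloured by cell line; dashed lines mark the rule of size at -1 and 1. HMGB1 is lowest (-1.73) and the distal HMGA2 probe highest (1.67) with miR-490-3p, the proximal HMGA2 probe stays between -0.06 and 0.13, and HMGB2 and HMGB3 are lowest with si-GINS1_2.

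With miR-490-5p, the other strand of the duplex in the same line, 0 of the 5 genes were low where 1.1% of all were, and 0 were high where 0.309% were. HMGB3 was the highest of them. Its log2 ratio was 0.61 at the downstream probe (673 in mock, 1160 in transfected cells) and 0.55 at the upstream probe. HMGA1 was the lowest at -0.57, from 7563 in mock to 6015 in transfected cells. The values for HMGB1 (-0.17), HMGB2 (-0.08), HMGA2 distal (-0.27) and HMGA2 middle (-0.31) were closer to 0. With median centring HMGA1 was -0.32, HMGA2 distal -0.10 and HMGB1 0.06.

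The difference of both miR-490 arrays removes a dye bias that they share. It compares miRNAs that differ in sequence along their whole length, at 1 array each and with no test. The log2 ratio with miR-490-3p minus that with miR-490-5p was -1.57 for HMGB1 and 1.94 for the distal HMGA2 probe. These were the 1 low and the 1 high gene of the 5, where 0.443% and 0.856% of all were low and high. HMGB3 differed by -0.87 at the downstream and -0.54 at the upstream probe, HMGB2 by -0.56 and HMGA1 by 0.28. The mock channels of HCT116 differed with an SD of 0.07 over genes. That spread covers the hybridisation of single channels and not the culture, so it is no yardstick for these differences of ratios. HMGB1 was chosen on the miR-490-3p array, so nothing is read from its value.

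**Figure D2:**
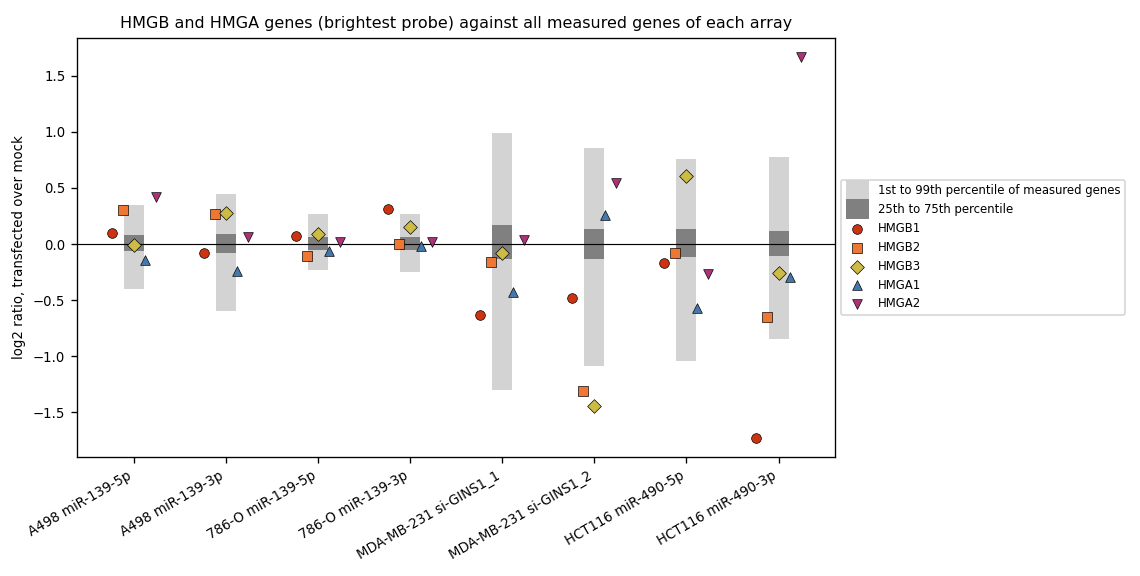
Log2 ratio of the brightest probe of each HMG gene (markers) on each array, over the 1st to 99th percentile (light bar) and the 25th to 75th percentile (dark bar) of all measured genes. HMGB1 and HMGA2 lie outside the light bar with miR-490-3p (-0.85 to 0.78), and HMGB2 and HMGB3 below it with si-GINS1_2 (-1.09 to 0.86).

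GINS1 is a subunit of the replicative helicase, and MDA-MB-231 cells given siRNAs against it had lower HMGB1 by loess-normalized ratios. The scanned HMGB1 brightness, before normalization, was 2801 in mock and 2896 in transfected cells with si-GINS1_1. With si-GINS1_2 it was 2759 in mock and 2581 in transfected cells. The log2 ratio was -0.63 with si-GINS1_1 and -0.48 with si-GINS1_2, both below every renal array. The mean fell by 0.55 ± 0.10 (SD, n = 2 siRNAs; SE 0.10; 95% interval -0.82 to -0.29), with an adjusted p of 0.0359 in limma. HMGB1 was thus 1 of 5 genes called, where 12.5% of all 27803 probes tested were. The call was lost without si-GINS1_1 (-0.48, adjusted p 0.0508) and with 5 other settings. Among these, centring each array on its median in place of the loess curve gave -0.05 (adjusted p 0.816), and the scanner's own ratio gave -0.59 (adjusted p 0.121). Subtracting each probe's mean over the other lines gave -0.31 (adjusted p 0.164). This takes out a dye bias, but the mean subtracted also holds the HMGB1 ratio of -1.73 with miR-490-3p.

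HMGB2 and HMGB3 separated the siRNAs. HMGB2 had a log2 ratio of -0.16 with si-GINS1_1, and -1.31 with si-GINS1_2. Its scanned brightness, before normalization, was 1773 in mock and 2500 in transfected cells with si-GINS1_1, and 1802 and 891 with si-GINS1_2. The si-GINS1_1 value was 0.45 with median centring. The downstream HMGB3 probe had -0.08 and -1.44, and the upstream probe -0.12 and -1.01. With median centring these were 0.33 and -1.30 downstream and 0.22 and -0.88 upstream. By loess-normalized ratios only the si-GINS1_2 values of these 3 probes passed -1. The means were -0.74 ± 0.82 for HMGB2, -0.76 ± 0.97 for HMGB3 downstream and -0.56 ± 0.63 for HMGB3 upstream (SD, n = 2), with adjusted p of 0.173, 0.193 and 0.156 in limma, and none was called. Without si-GINS1_1 the adjusted p were 0.00605, 0.000776 and 0.000936, and then 1 array stands for the group and is assumed to vary like the others. The difference between the siRNAs, -1.15 for HMGB2 and -1.37 and -0.89 for HMGB3, was not tested.

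HMGA1 and HMGA2 were not called with si-GINS1. HMGA1 had -0.43 with si-GINS1_1 and 0.26 with si-GINS1_2 (mean -0.08, 95% interval -0.54 to 0.37, adjusted p 0.779 in limma). It was called without si-GINS1_2 (-0.43, adjusted p 0.0144). The distal HMGA2 probe had 0.04 and 0.54 (mean 0.29, 95% interval -0.11 to 0.69, adjusted p 0.262), and was called without si-GINS1_1 (0.54, adjusted p 0.038). The proximal and middle probes had means of 0.03 and -0.05. Centring on the median turned HMGA1 to 0.45 and made the proximal and middle HMGA2 probes called rises of 0.31 (adjusted p 0.0244) and 0.15 (adjusted p 0.0347), while it moved the median of all genes to 0.18 and 0.08 on these arrays from 0.02 and 0.00.

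**Figure D3:**
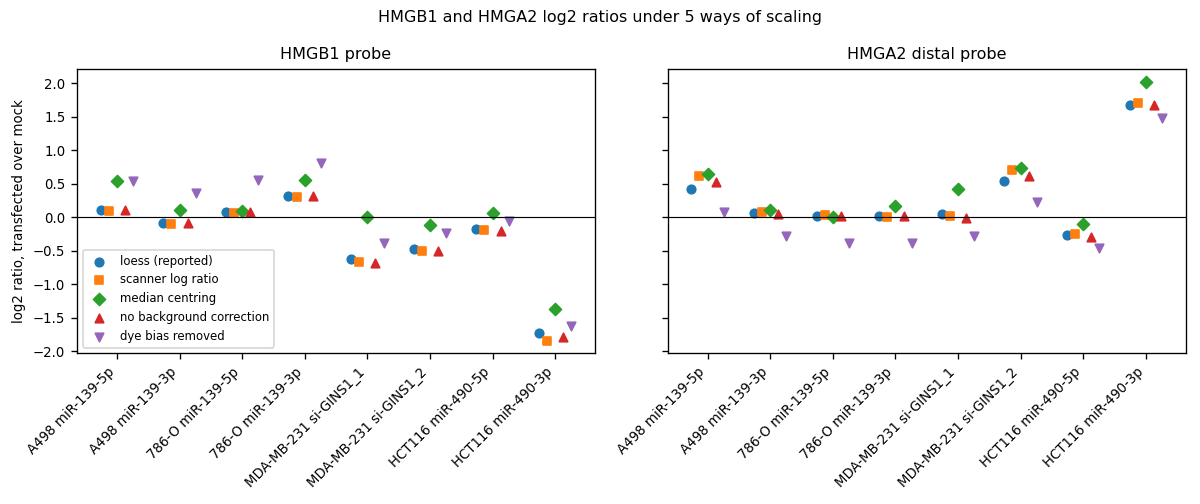
Log2 ratios of HMGB1 (left) and the distal HMGA2 probe (right) on each array under 5 ways of scaling (markers). The miR-490-3p values keep their side under all 5, at -1.84 to -1.37 for HMGB1 and 1.48 to 2.02 for HMGA2, while HMGB1 with si-GINS1 comes close to 0 under median centring.

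In the renal lines neither miR-139 strand moved an HMG gene past the test. HMGB1 had log2 ratios of 0.10 in A498 and 0.07 in 786-O with miR-139-5p, and of -0.08 and 0.31 with miR-139-3p. The means were 0.09 (95% interval -0.18 to 0.35, adjusted p 1 in limma) and 0.12 (-0.14 to 0.38, adjusted p 0.843). HMGB1 in 786-O with miR-139-3p lay above the 99th percentile of its array, 0.27, and only 106 of 19147 genes lay higher.

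HMGB2 had 0.30 and 0.27 in A498 and -0.11 and 0.00 in 786-O, with miR-139-5p and miR-139-3p respectively. The downstream HMGB3 probe had -0.01, 0.28, 0.09 and 0.15 in the same order, and the upstream probe -0.06 to 0.10. HMGA1 lay between -0.24 and -0.02 on these 4 arrays, and between -0.09 and 0.27 with median centring. The distal HMGA2 probe had 0.42 in A498 with miR-139-5p, where 84 of 20472 genes were higher, and 0.06, 0.02 and 0.02 on the other 3. Means over both lines were -0.10 to 0.22 with miR-139-5p and -0.13 to 0.21 with miR-139-3p over all 8 probes. Of the 5 genes 0 were called with miR-139-5p, where 0.00429% of all probes were (1 of 23288, and 1477 at an unadjusted p under 0.05), and 0 with miR-139-3p, where 0.00438% were (1 of 22813, and 2003 unadjusted).

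The strands of miR-139 were compared in 1 contrast, over 8 probes with p adjusted over all probes. Differences of miR-139-3p minus miR-139-5p lay between -0.18 and 0.18, and 0 of the 5 genes were called, where 0% of all 22178 probes were (660 at an unadjusted p under 0.05). Their 95% intervals were as wide as -1.03 to 1.38 for HMGB3 downstream and as narrow as -0.34 to 0.41 for HMGB1 among the brightest probes. The middle HMGA2 probe had the lowest unadjusted p, 0.0417 in limma (-0.18, 95% interval -0.34 to -0.01), and an adjusted p of 1.

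In mock cells all 5 genes had their highest level in HCT116, by the brightest probe. Levels are quantile-normalised log2 Cy3 intensities, compared between lines for 1 probe at a time. The labels do not say whether both mock channels of a line held the same RNA extract, so SD and p measure the spread between hybridisations. HMGB1 was 10.76 ± 0.10 in A498, 10.85 ± 0.05 in MDA-MB-231, 11.04 ± 0.11 in 786-O and 11.56 ± 0.01 in HCT116 (SD, n = 2). This was the narrowest order of the 5 genes. A498 and MDA-MB-231 were not separated (-0.09, 95% interval -0.21 to 0.04, adjusted p 0.181 in limma), though with Aquantile scaling they were (-0.24, adjusted p 0.00356). The 786-O level exceeded that of MDA-MB-231 by 0.19 (adjusted p 0.0128), but by 0.05 with Aquantile scaling (adjusted p 0.439). HCT116 exceeded 786-O by 0.52.

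HMGB2, the relative of dividing cells, covered a wider range. Its lowest line was A498 (8.77 ± 0.10), then came 786-O (9.81 ± 0.05), MDA-MB-231 (10.23 ± 0.01) and HCT116 (10.54 ± 0.02), and every pair of lines was called. HCT116 exceeded A498 3.41-fold. HMGA1 had the widest order. From 8.44 ± 0.07 in 786-O it went through 10.17 ± 0.09 in A498 and 11.11 ± 0.09 in MDA-MB-231 to 12.37 ± 0.14 in HCT116, so that 786-O lay 15.3-fold below HCT116 (log2 difference -3.93, 95% interval -4.10 to -3.77, adjusted p 4.21e-11 in limma). The renal lines thus stood in opposite order for HMGA1 and HMGB2, with A498 higher by 1.74 for the one and lower by 1.03 for the other.

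The probes of HMGB3 and of HMGA2 ordered the lines differently. HMGB3 downstream was 7.58 in A498, 7.67 in MDA-MB-231, 8.86 in 786-O and 9.05 in HCT116, with SDs of 0.00 to 0.07. HMGB3 upstream was 6.14, 7.19, 8.75 and 7.25 in the same order of lines. So 786-O lay 0.19 below HCT116 at the downstream probe (adjusted p 0.00183 in limma) and 1.50 above it at the upstream one (adjusted p 5.57e-10). A498 and MDA-MB-231 were not separated downstream (adjusted p 0.0729, and 0.0237 with Aquantile scaling), nor MDA-MB-231 and HCT116 upstream (adjusted p 0.223).

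HMGA2 distal was 7.19 in A498, 7.36 in MDA-MB-231, 8.14 in 786-O and 9.77 in HCT116, and every pair was called. HCT116 exceeded A498 5.96-fold (adjusted p 4.1e-12 in limma). The proximal probe spread over far less, from 7.36 in A498 through 7.40 in 786-O and 7.42 in MDA-MB-231 to 7.97 in HCT116, and the first 3 were not separated (adjusted p 0.316 to 0.717). The middle probe was 5.86, 6.78, 7.27 and 7.42 in A498, MDA-MB-231, 786-O and HCT116, and in A498 it was well above background in Cy3 on 1 of 2 arrays. Its difference between 786-O and HCT116 (-0.15, adjusted p 0.0256) was not called without background correction (-0.20, adjusted p 0.0599).

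Differences between lines were common over the whole array, and the counts of HMG probes are to be read against that. For A498 against 786-O, 7 of 8 probes were called where 74.2% of all were. For A498 against MDA-MB-231 it was 5 of 8 where 76.3% were, and for A498 against HCT116 8 of 8 where 79.9% were. For 786-O against MDA-MB-231 it was 7 of 8 where 73.7% were, for 786-O against HCT116 8 of 8 where 78.6% were, and for MDA-MB-231 against HCT116 7 of 8 where 71.5% were. These shares were near the background.

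**Figure D4:**
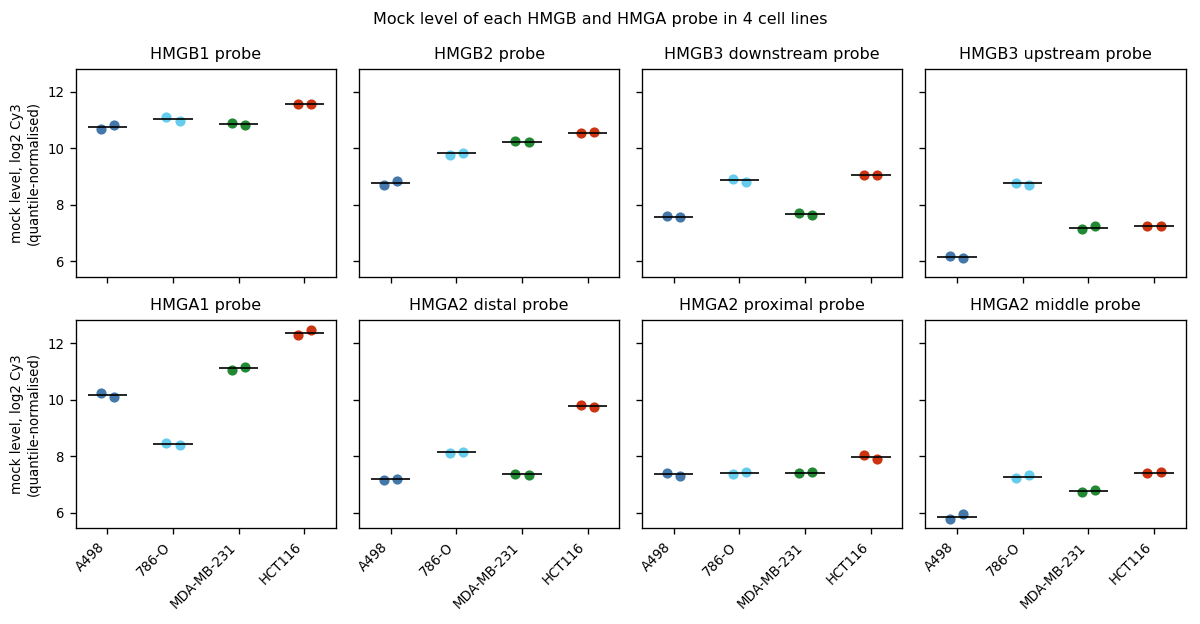
Mock level (quantile-normalised log2 Cy3) of each of the 8 probes in the 4 cell lines; points are the pair of mock channels of a line and bars their mean. Pairs lie within 0.20 of each other, HMGA1 spans the most between lines (8.44 to 12.37), and the upstream HMGB3 probe is highest in 786-O.

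Other chromatin proteins of the same kind were read from lists. The HMGN proteins, which bind nucleosomes, had a median log2 ratio of -0.28 over 5 measured genes with miR-490-3p, where the median of all genes was 0.01, and it was 0.11 with median centring. None of the 5 passed the rule of size there. With miR-490-5p 1 of 5 did, HMGN2, at -2.03, with -0.52 on the miR-490-3p array. HMGN2 therefore differed by 1.51 between the miR-490 strands, in the direction opposite to HMGB1. Of 15 measured members of a list of other HMG-box proteins, 0 passed with either strand (medians -0.13 and -0.03), and of 5 linker histones 0 passed (medians -0.20 and -0.08). With median centring the HMG-box medians were 0.08 and 0.11, and those of the linker histones -0.08 and 0.05.

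With si-GINS1, 0 of 5 HMGN genes were called (median -0.28, and 0.14 with median centring), where 12.5% of all probes were. The siRNAs differed, with HMGN medians of 0.06 for si-GINS1_1 and -0.66 for si-GINS1_2. Of 16 HMG-box genes 2 fell, a share equal to that of all probes, TFAM (-0.67, adjusted p 0.0044 in limma), which packs mitochondrial DNA, and BBX (-0.67, adjusted p 0.00998). In the renal lines 0 HMGN, HMG-box or linker histone genes were called with either strand of miR-139. Of 4 measured markers of cells that no line should hold, CD14 fell (-1.19, adjusted p 0.0032) and PTPRC rose (0.20, adjusted p 0.0253) with si-GINS1, and their part in these results was not tested.

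Partners of HMGB1 and HMGB2 were read the same way, and their calls with si-GINS1 are to be set beside the 12.5% of all probes. Of 8 measured receptors and extracellular partners of HMGB1, 0 passed the rule of size with miR-490-3p and 0 of 7 with miR-490-5p. With si-GINS1 1 of 8 was called, TLR2, a Toll-like receptor that binds HMGB1, which rose by 0.77 (adjusted p 0.0159 in limma) and was well above background only on the MDA-MB-231 arrays. Of 8 genes for HMGB1 acetylation and nuclear export 0 passed with either miR-490 strand, and 2 fell with si-GINS1, the deacetylases HDAC4 (-0.41, adjusted p 0.0101) and SIRT1 (-0.17, adjusted p 0.0175). The median of the 8 with si-GINS1 was -0.20, and 0.02 with median centring, which moved the median of all genes from 0.01 to 0.15. Of 5 SET complex genes 0 passed with either miR-490 strand, and 1, SET itself, fell with si-GINS1 (-0.75, adjusted p 0.0343). In the renal lines 0 members of these 3 lists were called, nor any of the lists below.

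The let-7 axis of HMGA2 holds LIN28 and IGF2BP family genes and DICER1. Its 4 measured genes with miR-490-3p, which left out both LIN28 genes, had a median of 0.30 and a highest value of 0.88 (DICER1). With miR-490-5p the median was 0.07 over 3 measured genes, and DICER1 had 0.50. The rule of size was passed by 0 with either strand. With si-GINS1 0 of 3 were called (median 0.34), where 12.5% of all probes were. The 14 proliferation genes, read because HMGB2 marks dividing cells, had medians of 0.31 (miR-490-3p) and 0.11 (miR-490-5p), and 0 passed with either strand. With si-GINS1 all 14 had means below 0 (median -0.39), but the siRNAs had medians of opposite sign, 0.20 for si-GINS1_1 and -0.92 for si-GINS1_2. Of the 14, 1 was called (CCNA2, cyclin A2, -0.71, adjusted p 0.00604 in limma), where 12.5% of all probes were. The median of the means was 0.03 with median centring. Of the study's candidates 36 were measured with miR-490-3p and 9 were low, where 0.665% of all measured genes were. The lowest were HMGB1, HNRNPA1, HKDC1 (-1.43) and STT3A (-1.42). With the scanner ratio of each gene's brightest probe 28 of the 38 were low. The paper lists all 38 below -1, and which probe of each gene it read was not checked. The lowest here were CYP4F2 (-2.60), PPP1R1B (-2.46), SLC5A1 (-2.40) and HKDC1 (-2.34). Of these the first 3 had -0.14 to -0.13 after background correction and loess. The candidates were chosen by the study on this array, so this count is not independent evidence of their direction. With miR-490-5p 2 of 35 were low, HKDC1 (-2.01) and STT3A (-1.25), where 1.1% of all measured genes were.

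The genes whose log2 ratios most resembled each member over the 8 arrays were taken among 2811 others that spanned at least 1 log2 unit and were measured on all arrays. These correlations describe 8 points that share a slide, a scanner and, within a line, possibly a mock extract, and 1 or 2 arrays set each of them. For HMGB1 they were HNRNPA1 (r = 0.974), HOOK2 (0.959) and HNRNPA1L2 (0.958). All had their lowest ratio on the miR-490-3p array. HMGB1 was chosen on that array and HNRNPA1 was a study candidate from it, so nothing is supported with these correlations. HNRNPA1L2 is a near copy of HNRNPA1, so their probes may read the same transcripts. For HMGB2 all 3 were core histone genes, H3C4 (0.977), H4C4 (0.975) and H3C2 (0.969), whose transcripts are made in S phase. With si-GINS1_2 these had log2 ratios of -1.13, -1.23 and -2.09, beside -1.31 for HMGB2.

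For HMGB3 the genes were EXOSC9 (0.983), TSPYL1 (0.977) and ATPSCKMT (0.971). EXOSC9 is a subunit of the RNA exosome. For HMGA2 they were NRG1 (0.941), PSMG4 (0.940) and KIAA0040 (0.939), at 0.94 to 1.17 with miR-490-3p. NRG1 encodes the growth factor neuregulin. HMGA1 spanned only 0.83 and was not matched. Probes named for HMGA1P7, HMGB3P1 and HMGA2-AS1, copies or antisense partners of members, lay between -0.52 and 0.33 on all arrays. HMGA1P7 was not well above background on any array.

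**Figure D5:**
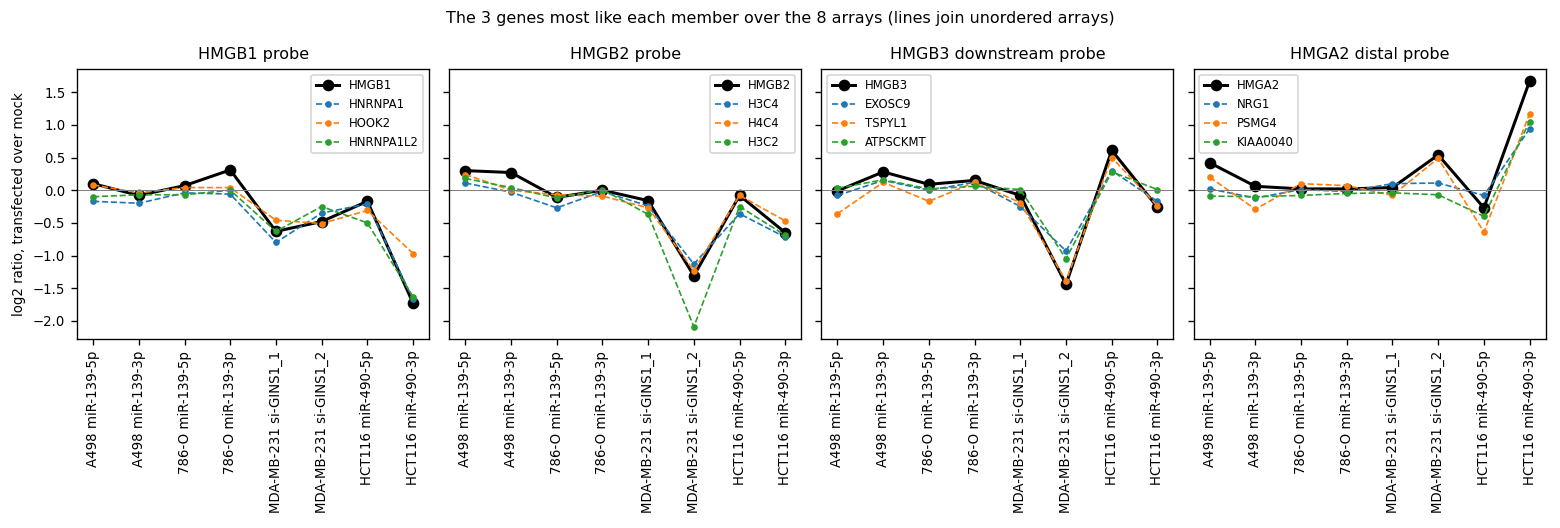
Log2 ratios over the 8 arrays for HMGB1, HMGB2, HMGB3 and HMGA2 (black) and the 3 genes most correlated with each (coloured); the lines join arrays that have no order. The HMGB1 set is lowest with miR-490-3p, the HMGB2 and HMGB3 sets with si-GINS1_2, and the HMGA2 set is highest with miR-490-3p.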

How the data were processed

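Expression was measured on 8 Agilent 2-colour arrays of 1 slide. Per the file headers, the authors scanned it with Feature Extraction 11.5.1.1, on an array design annotated to hg19. The deposited intensity columns are mean spot brightness and median local background per channel, on a linear scale. For each spot the authors deposited, too, the log10 of Cy5 over Cy3 as their scanner software computed it. The deposited series table held the same log10 ratios (largest difference 0) and was used as an alternative, converted to log2.

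The background correction was limma's normexp (version 3.58.1, R 4.3.3) at an offset of 50, which pulls ratios of dim probes toward 0. Loess within each array followed, without the 2075 control spots. Later steps used Python 3.11.15, numpy 2.4.6, pandas 2.3.3 and matplotlib 3.10.9. Of 31770 probes with a transcript accession 31038 were named through RefSeq, and the others kept the name in the file. The file's gene names chose the HMG probes.

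Groups of 2 arrays were tested with limma against 0, all 8 arrays entering 1 fit (5 coefficients, 3 residual degrees of freedom). Each strand's arrays pair by cell line, and deviations of same-line arrays had a correlation of 0.0753 over 22174 probes. Mock Cy3 levels were fitted after quantile normalisation. The Benjamini-Hochberg method adjusted p over all probes tested, with a threshold of 0.05. The tests were checked on simulated data. The number of arrays limits the precision. Members, lists and rules were chosen with earlier results of these data known. All probes of members were reported, list genes were named when called (at most 4 per list and comparison, by size), and similar genes were the 3 with the highest Pearson correlation. Part of the list results is not reported here. Alternatives were the scanner ratio, median centring, no background correction, removal of a dye bias, the median of a gene's probes and no filter. Smaller fits and each array left out were tried too. Removal of a dye bias subtracted each probe's mean over the other lines, which also holds responses there.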

Additional observations from a re-analysis of the deposited data

Results flagged for a closer look

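In A498 both HMGB2 log2 ratios were positive (0.30 with miR-139-5p, 0.27 with miR-139-3p), while in 786-O neither was (-0.11 and 0.00, the latter just under 0 before rounding). The means of the renal lines differed by 0.34, and this difference was not tested. With median centring the A498 values were 0.64 and 0.39 and the 786-O values -0.11 and 0.19, in the same order of strands. The lines then lay on opposite sides with miR-139-5p only.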

How the results depend on the processing

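The low HMGB1 and high HMGA2 (distal probe) values with miR-490-3p kept their side under all settings that kept the probe. HMGB1 was -1.73, and -1.84 with the scanner ratio, -1.37 with median centring and -1.62 with dye bias removed. With the median of a gene's probes 0 HMG genes were high with miR-490-3p, or in the difference of the strands. HMGA2 then had 0.00 and 0.27, since only its distal probe was high. Counts of all genes depended on the setting. With miR-490-3p 142 were low (843 with the scanner ratio, 70 with median centring, 255 without background correction) and 88 high (868, 253 and 153, and 57 with the median of probes). With miR-490-5p 232 were low (806 with the scanner ratio, 373 without background correction) and 65 high (1026 and 131, and 130 with median centring). In the difference 90 were low (1025 with the scanner ratio, 220 without background correction, 58 with the median of probes) and 174 high (940 and 341, and 348 with median centring). With either miR-139 strand 1 probe was called, and 0 with the scanner ratio, median centring, dye bias removed, no filter, the median of probes or an array left out. Without background correction 6 (miR-139-5p) and 9 (miR-139-3p) were called, and 3 for miR-139-5p when only its arrays were fitted. With si-GINS1 3484 probes were called, 187 with the scanner ratio, 1687 without a filter, 0 when only its arrays were fitted and 8678 to 11386 with an array left out. HMG genes called with si-GINS1 went from 1 to 0 with the scanner ratio, median centring, dye bias removed, no filter or only its arrays, and to 2 to 3 with an array left out. The cause was not tested.

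Among tested values none that was called turned sign, and of those that did, 1 was called afterwards, HMGA2 middle with si-GINS1 and median centring (adjusted p 0.0347). With miR-139-5p HMGB3 upstream (-0.01) was 0.07 with the scanner ratio, 0.02 with median centring, 0.01 without background correction and 0.07 with dye bias removed. HMGA1 (-0.10) was 0.10 with median centring and 0.11 with dye bias removed, and HMGA2 distal (0.22) was -0.15 with dye bias removed. For lines other than HCT116, the mean subtracted from HMGA2 distal holds its 1.67 with miR-490-3p. With miR-139-3p HMGA1 (-0.13) was 0.01 with median centring and 0.08 with dye bias removed, and dye bias removed gave -0.34 for HMGA2 distal (0.04) and 0.05 for HMGA2 middle (-0.07). With si-GINS1 median centring gave 0.45 for HMGA1 (-0.08) and 0.15 for HMGA2 middle (-0.05), and dye bias removed gave 0.13 and 0.05 for these, -0.03 for HMGA2 distal (0.29) and -0.01 for HMGA2 proximal (0.03), which was -0.01 without background correction. With an array left out, values with miR-139-5p ranged from -0.11 to 0.30 (HMGB2), -0.01 to 0.09 (HMGB3 downstream), -0.06 to 0.04 (HMGB3 upstream) and -0.02 to 0.13 (HMGA2 proximal), and HMGB1 with miR-139-3p from -0.08 to 0.31. For miR-139-3p minus miR-139-5p the ranges were -0.16 to 0.23 (HMGB1), -0.16 to 0.25 (HMGB2), -0.14 to 0.07 (HMGA1), -0.38 to 0.02 (HMGA2 distal) and -0.05 to 0.10 (HMGA2 proximal). With si-GINS1 they were -0.43 to 0.26 (HMGA1), -0.01 to 0.07 (HMGA2 proximal) and -0.13 to 0.03 (HMGA2 middle). In mock cells HMGA2 proximal ranged from -0.09 to 0.01 for A498 minus 786-O and from -0.06 to 0.01 for 786-O minus MDA-MB-231. The cell line as a replicate block, which pairs the strands, called 0 probes and changed no call. No count of mock calls moved by over 1.5 times. The lone array left in a group is assumed to vary like the others.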
